A study of Homo sapiens with 8 samples.

Results

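The regions described here are open chromatin sites of NCI-H295R cells, away from protein-coding gene ends, that were listed in vehicle-treated cells and in none of 3 treatments. NCI-H295R is an established human adrenocortical carcinoma cell line that makes steroid hormones. A peak of the vehicle list was taken when its summit lay more than 1 kb from both annotated ends of every protein-coding gene and when no peak of the 3 treated lists overlapped it by even 1 bp. The rule found 10573 peaks, of 48491 distal and 61016 peaks in all in the vehicle list. They are called lost peaks below, and the 20978 distal peaks that had an overlap in all 3 treated lists are called kept peaks. The other 16940 distal peaks were lost in 1 or 2 treated lists. Lost and kept describe membership of a list, since a site can remain open and fall just under the peak caller's threshold.

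The assay was ATAC-seq, which cuts accessible DNA with the transposase Tn5 and sequences the fragments. The EZH2i cells had 62 µM of EPZ-6438 for 96 h, and the CBPi cells had 26 µM of PRI-724 for 96 h. The FSK cells had 48 h of vehicle and then 10 µM of forskolin for 48 h, and the vehicle cells had DMSO for 96 h. Each group had 2 libraries but only 1 peak list, which leaves the values without replicate error, and with read depth unknown no p-value was computed. Intervals on shares are Wilson 95% intervals, which take each peak as independent of the others and hold only the error of counting. The peaks were chosen by their presence in these lists, so their number and their low areas are descriptions.

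EZH2 is the enzyme of Polycomb complex 2 that methylates histone H3 on lysine 27, a mark of silenced genes. EPZ-6438 blocks that enzyme, PRI-724 is described as blocking the coactivator CBP, and forskolin activates adenylyl cyclase, which raises cAMP, the second messenger of ACTH in the adrenal cortex. Open sites far from gene ends are often enhancers, which bind transcription factors and act on genes over a distance, and they differ more between cell types and states than promoters do.

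Some of the lost peaks lay on the annotated start of a non-coding RNA or on a start inside a gene, and for these the sequence could be read. The RefSeq promoter table (GRCh38.p14) holds, for 35116 genes, 250 bases before and 50 after an annotated start. A summit fell in such a window for 75 of the 10573 lost peaks, which was 0.709% (0.566 to 0.888%). Among kept peaks it did so for 1471 of 20978, which was 7.01% (6.67 to 7.37%), and among kept peaks with an area under 581.4, the median of the vehicle list, for 116 of 4843, which was 2.40% (2.00 to 2.87%). Among peaks lost in 1 or 2 lists it did so for 203 of 16940, which was 1.198% (1.045 to 1.374%). The kept peaks under the median, called smaller kept peaks below, were not matched to the lost peaks in area. Of those 4843 peaks 2187 had areas between 459.3 and 581.3, against 640 of the 10573 lost peaks. The 75 peaks covered 77 promoters, 53 of long non-coding RNAs and 24 of protein-coding genes. The sequences below are the 250 bases before the start for the lost peaks of largest area, leaving out genes with provisional names. They are shown because they carry few of the GC-rich boxes that 54 of 122 promoters under kept peaks of smaller area carry. Each is written 5′ to 3′ on the strand of its gene. Capitals mark CCAAT, the box bound by NFY, or its reverse complement ATTGG, and GGGCGG, the GC box bound by SP and KLF factors, or its reverse complement CCGCCC.
NHS, chrX:17635250-17635499, plus strand: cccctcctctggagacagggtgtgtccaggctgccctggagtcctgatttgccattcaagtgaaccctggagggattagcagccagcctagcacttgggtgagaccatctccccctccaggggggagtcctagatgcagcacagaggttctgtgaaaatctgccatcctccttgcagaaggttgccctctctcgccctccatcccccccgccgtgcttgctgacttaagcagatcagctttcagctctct
LINC00601, chr10:126421880-126422129, minus strand: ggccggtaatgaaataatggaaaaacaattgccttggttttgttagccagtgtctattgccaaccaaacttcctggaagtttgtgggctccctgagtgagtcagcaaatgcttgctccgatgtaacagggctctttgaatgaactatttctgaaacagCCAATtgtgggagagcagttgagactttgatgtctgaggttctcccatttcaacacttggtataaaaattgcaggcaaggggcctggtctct
TP63, chr3:189631139-189631388, plus strand: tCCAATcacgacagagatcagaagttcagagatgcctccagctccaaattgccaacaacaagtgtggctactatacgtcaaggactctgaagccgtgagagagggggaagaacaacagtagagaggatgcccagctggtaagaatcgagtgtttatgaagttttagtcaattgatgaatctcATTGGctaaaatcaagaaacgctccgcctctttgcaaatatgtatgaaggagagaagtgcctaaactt
CD36, chr7:80623842-80624091, plus strand: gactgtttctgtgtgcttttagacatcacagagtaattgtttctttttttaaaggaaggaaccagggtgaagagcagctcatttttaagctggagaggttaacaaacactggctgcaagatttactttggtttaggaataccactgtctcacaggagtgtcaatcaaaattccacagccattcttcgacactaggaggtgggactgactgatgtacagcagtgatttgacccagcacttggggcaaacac
GLYATL1, chr11:58927379-58927628, plus strand: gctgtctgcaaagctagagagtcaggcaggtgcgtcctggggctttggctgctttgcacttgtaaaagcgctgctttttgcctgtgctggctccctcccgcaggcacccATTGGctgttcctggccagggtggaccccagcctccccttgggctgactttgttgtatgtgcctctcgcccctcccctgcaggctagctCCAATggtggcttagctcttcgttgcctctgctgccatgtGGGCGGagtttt
MIR29B2CHG, chr1:207822704-207822953, minus strand: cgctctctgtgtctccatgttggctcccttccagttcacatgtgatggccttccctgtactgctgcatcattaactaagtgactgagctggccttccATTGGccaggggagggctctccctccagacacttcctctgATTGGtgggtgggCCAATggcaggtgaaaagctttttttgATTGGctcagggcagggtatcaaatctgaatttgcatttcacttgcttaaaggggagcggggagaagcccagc

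For contrast, these are the same windows under the 2 kept peaks of largest area among those under 581.4, chosen in the same way.
LINC01315, chr22:42369209-42369458, minus strand: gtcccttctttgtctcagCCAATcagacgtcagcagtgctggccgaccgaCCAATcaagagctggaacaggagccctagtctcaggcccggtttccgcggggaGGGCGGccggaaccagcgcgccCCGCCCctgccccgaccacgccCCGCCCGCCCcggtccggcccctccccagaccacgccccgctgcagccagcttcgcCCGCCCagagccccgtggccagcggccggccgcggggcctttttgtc
CCND3, chr6:42048689-42048938, minus strand: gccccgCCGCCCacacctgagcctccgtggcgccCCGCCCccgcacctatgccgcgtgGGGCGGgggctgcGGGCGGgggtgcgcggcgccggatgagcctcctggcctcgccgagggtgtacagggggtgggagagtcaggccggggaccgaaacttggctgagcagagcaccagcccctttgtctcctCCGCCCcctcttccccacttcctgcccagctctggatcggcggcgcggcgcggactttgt

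Under lost peaks, the 250 bases of NHS, the gene of Nance-Horan syndrome, and of CD36, a fatty acid transporter, held neither box. TP63, a p53 family transcription factor of epithelia, held 2 CCAAT boxes, and MIR29B2CHG, the host of miR-29 precursors, held 4. GLYATL1, of the glycine acyltransferase family, held 2 CCAAT boxes and 1 GC box. The kept promoters of LINC01315 and of CCND3, which encodes cyclin D3, held 5 GC boxes each, with 2 CCAAT boxes in LINC01315 and 0 in CCND3. Their GC content was 73.2% and 74.4% with 26 CpG pairs each. The medians under kept peaks of smaller area were 61.2% and 9, so these 2 are not typical of that class. The area was 597.7 for the lost peak on NHS and between 354.2 and 409.5 for the other lost peaks shown, and 581.2 for each kept peak. These promoters were picked after values had been seen.

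Over the 77 promoters under lost peaks the median GC content was 46.0% (quartiles 42.8 and 51.6%), and the median number of CpG pairs was 3. It was 61.2% with 9 CpG pairs in the 122 promoters under kept peaks of smaller area, 65.6% with 20 in the 1666 under all kept peaks, and 58.0% with 11 over all 35116 promoters. GGGCGG or its complement stood in 8 of the 77 promoters under lost peaks, 10.4% (5.36 to 19.2%), in 54 of the 122, 44.3% (35.8 to 53.1%), and in 42.6% of all promoters. CCAAT stood in 31 of the 77, 40.3% (30.0 to 51.4%), in 26 of the 122, 21.3% (15.0 to 29.4%), and in 32.01% of all. The intervals for both boxes did not overlap between lost and smaller kept peaks, with the GC box less frequent and CCAAT more frequent under lost peaks. For CCAAT they nearly touched, at 30.0% and 29.4%, and 24 motifs were sought. The CCAAT share of all promoters lay within the interval under lost peaks and above that under smaller kept peaks. For the GC box it lay above the interval under lost peaks and within that under smaller kept peaks. Against all kept peaks, where GGGCGG stood in 63.4% (61.0 to 65.7%) and CCAAT in 36.9% (34.6 to 39.3%), the interval under lost peaks overlapped for CCAAT and did not for the GC box. The 218 promoters under peaks lost in 1 or 2 lists had a median GC content of 52.2%. In them GGGCGG stood in 30.3% (24.6 to 36.7%) and CCAAT in 26.15% (20.8 to 32.4%). The CCAAT interval there overlapped that under lost peaks, and the GC box interval lay above it.

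The AP-1 motif TGANTCA stood in 4 of the 77 promoters under lost peaks, 5.19% (2.04 to 12.6%), against 29 of the 122 under smaller kept peaks, 23.8% (17.1 to 32.1%), and 6.57% of all promoters. Under all kept peaks it stood in 7.32% (6.17 to 8.67%), and under peaks lost in 1 or 2 lists in 12.4% (8.65 to 17.4%). The AP-1 share of all promoters lay below the intervals under smaller kept peaks and under peaks lost in 1 or 2 lists. It lay within those under lost peaks and under all kept peaks. ACAAAG, a SOX motif, stood in 27.3% (18.6 to 38.1%) under lost peaks, 14.8% (9.54 to 22.1%) under smaller kept peaks and 13.7% of all promoters. Its interval under lost peaks overlapped that under smaller kept peaks, and lay above that under all kept peaks, where it stood in 9.24% (7.95 to 10.7%). CAAGGTCA, the motif of the adrenal factor NR5A1, stood in 1 of the 77 and in 4 of the 122, and in 1.15% of all promoters. TGACGTCA, the cAMP response element, stood in 1 of the 77 and 0 of the 122, and in 1.65% of all. Motifs were sought on both strands. In windows of low GC content AT-rich letters such as those of SOX are commoner, and boxes of G and C such as GGGCGG are rarer. GC content, the mix of coding and non-coding promoters and the areas of the peaks within a class were not adjusted for. A match is a stretch of letters and not evidence of binding.

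**Figure D1:**
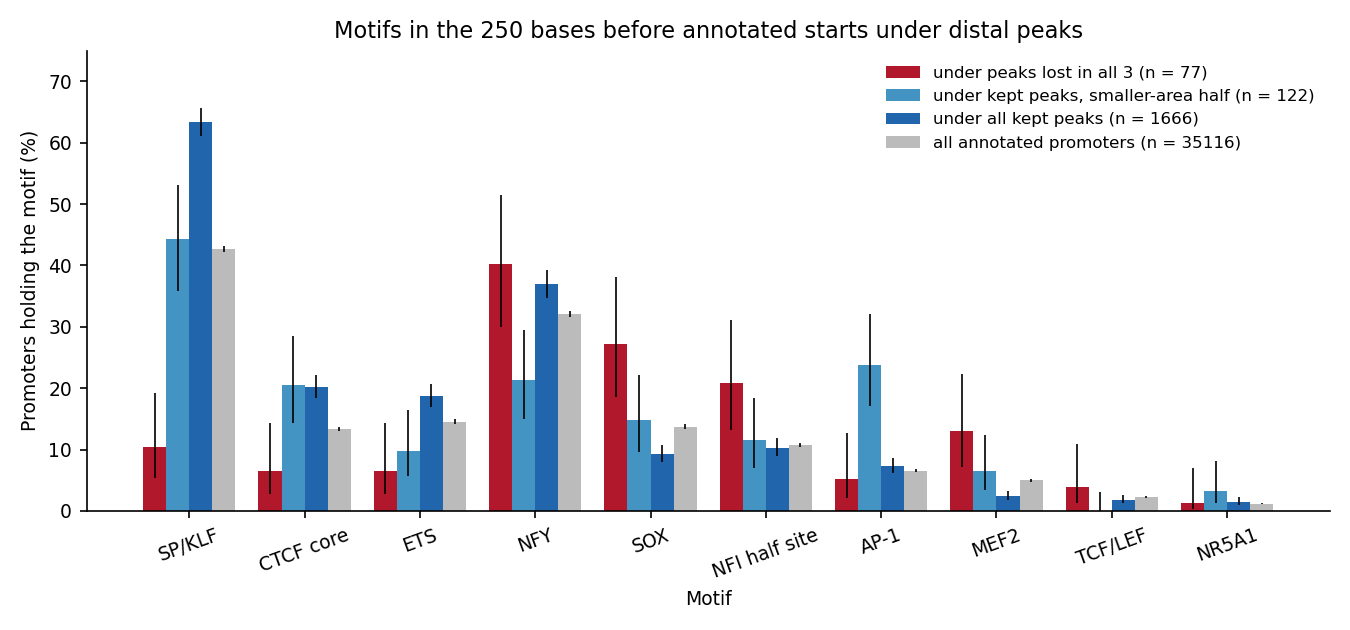
Share of promoters (vertical axis, %) whose 250 bases before the start hold each of 10 motifs (horizontal axis), for promoters under lost peaks, under kept peaks of smaller area, under all kept peaks and for all annotated promoters. Bars show Wilson 95% intervals. The SP/KLF box was in 10.4% of promoters under lost peaks and in 44.3% under smaller kept peaks, without adjustment for GC content or matching of area.

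The lost peaks made up 21.8% of distal vehicle peaks (21.4 to 22.2%). Of all vehicle peaks 17.9% were lost in all 3 lists, and of those with a summit within 1 kb of a protein-coding gene end 2.61%. Taken alone, 45.3% of distal vehicle peaks were lost with EZH2i, 37.4% with CBPi and 36% with FSK. These shares come from the contrast that chose the peaks, so nothing is read from them, and the 3 comparisons share the vehicle list. The EZH2i list had 41086 peaks, the CBPi list 47161, the FSK list 51095 and the vehicle list 61016, so all 3 treated lists were shorter than the vehicle list. Among the distal peaks that were lost in some lists but not all, 4731 were lost in EZH2i and CBPi together, 3463 in EZH2i alone, 3194 in EZH2i and FSK, 2701 in FSK alone, 1875 in CBPi alone and 976 in CBPi and FSK.

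Lost peaks were small and narrow. The area of a peak is the authors' summed excess of signal, and each list starts at 200. Lost peaks had a median area of 273.8 (quartiles 232.6 and 346.8, largest 1366.1) and kept peaks one of 923.4 (602.5 and 1527.2). The median width was 345 bp for lost and 649 bp for kept peaks, and the median −log10 p at the summit was 3.67 for lost and 5.33 for kept peaks. Of the lost peaks 6429, or 60.8%, had an area under 300, and 330, or 3.12%, reached the vehicle median of 581.4. They covered 3.94 Mb, 9.21% of the bases in vehicle peaks. With vehicle peaks cut into 10 bands of area, 60.1% of distal peaks in the lowest band were lost, 11.4% in band 5, 9 of 4452 in band 8 and 0 of 3123 and 0 of 1658 in the top bands, which allows shares of up to 0.123% and 0.231% there. Because area moves so strongly with loss, positions below are also given for kept peaks weighted to the area bands of the lost peaks, and counts are set beside the number that the areas alone would give.

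**Figure D2:**
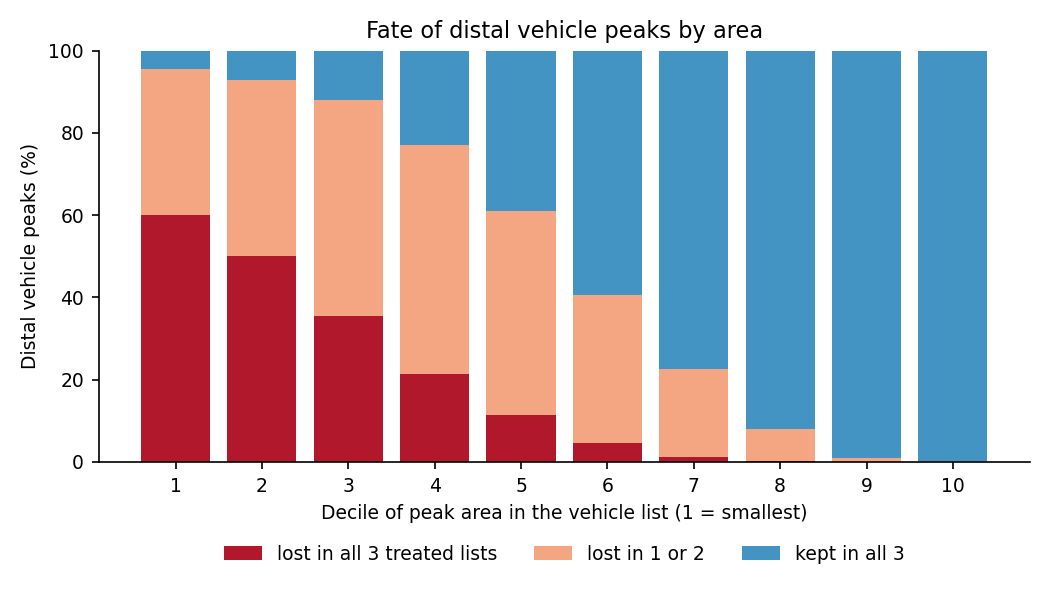
Distal vehicle peaks by decile of vehicle peak area (horizontal axis, deciles over all vehicle peaks) and the percent of each decile that was lost in all 3, lost in 1 or 2, or kept in all 3 treated lists (vertical axis). The lost share was 60.1% in decile 1 and 0 in deciles 9 and 10.

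A few lost peaks were large. The largest lay inside PLAGL1, a zinc finger transcription factor gene, at chr6:143982910-143983752 (hg38), 42.9 kb from a gene end. It had an area of 1366.1, and 23.8% of vehicle peaks were larger. The nearest peak lay 23312 bp away in the EZH2i list, 9374 bp away in the CBPi list and 18288 bp away in the FSK list. The second, at chr3:6294028-6294732, had an area of 1224.6 and lay 566.6 kb from any protein-coding gene end. The peak in SLC16A7, a monocarboxylate transporter gene, at chr12:59759698-59760905, had an area of 1202.8 and was 1208 bp wide. The peak at chr12:89345475-89346696, with an area of 1124.1, lay 1339 bp from an end of DUSP6, a phosphatase that switches off ERK. Its nearest peaks were 4701 bp away in the EZH2i, 4740 bp in the CBPi and 4713 bp in the FSK list.

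Other peaks among the top 10 by area ran between 1088.6 and 1188.2. They lay near MBD5, inside CNTRL, in a desert of chromosome 5 at 1043.8 kb from any gene end, in the non-coding gene MIR570HG and inside FBXL17. The desert peak, chr5:29972545-29973302, also had one of the highest summits, with −log10 p of 5.63. The widest lost peak, chr9:101903803-101905168, was 1366 bp wide with an area of 801.5. Its nearest treated peak was in the FSK list at 2061 bp, against 54413 bp in the EZH2i and 54636 bp in the CBPi list.

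Most lost peaks were far from any treated peak, so few were near misses of the overlap rule. The median gap was 22.5 kb to the EZH2i list, 19.8 kb to the CBPi list, 17.0 kb to the FSK list and 13.6 kb to any of them. Only 41 lost peaks had a treated peak within 100 bp and 890, or 8.42%, within 1 kb, while 6138, or 58.1%, had none within 10 kb. The closest was chr7:48091605-48092125 in UPP1, uridine phosphorylase, which abutted an FSK peak with a gap of 0 bp. A peak in NREP lay 10 bp from a CBPi peak, one in SLC6A19 15 bp from an EZH2i peak, and one in IL6R, the interleukin 6 receptor, 18 bp from an EZH2i peak. Just outside the rule, a peak in QSOX1 was covered over 33 bp by a CBPi peak, one in RTN1 over 36 bp by an FSK peak and one near LRRC28 over 41 bp by a CBPi peak. At the distance threshold, the lost peaks nearest to a gene end were 1004 bp from DNAAF9, 1008 bp from ATP5MF-PTCD1 and 1016 bp from ADAMTS9, and just within 1 kb lay peaks at 996 bp from SEC22C, 995 bp from USP28 and 984 bp from DOK4.

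Lost peaks lay further from genes than kept ones, as did peaks lost in 1 or 2 lists. For the latter the median distance to a protein-coding gene end was 45.85 kb, and 32.75% lay over 100 kb from any such end. The median distance from summit to the nearest protein-coding gene end was 51.6 kb (quartiles 16.5 and 155.2 kb) for lost peaks, 29.4 kb (8.46 and 92.0 kb) for kept peaks and 26.6 kb for kept peaks of matched area. More than 100 kb from any such end lay 3643 lost peaks, 34.5% (33.6 to 35.4%), against 23.2% (22.7 to 23.8%) of kept peaks and 20.6% of kept peaks at matched area. The lost share was the larger in each of the 7 lowest area bands, at 33.5% and 21.3% in the lowest band. Without chromosome 7, which has a stretch crowded with peaks, the shares were 34.5% of lost peaks, 23.1% of kept peaks and 21.1% at matched area; this check was chosen after seeing the data.

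**Figure D3:**
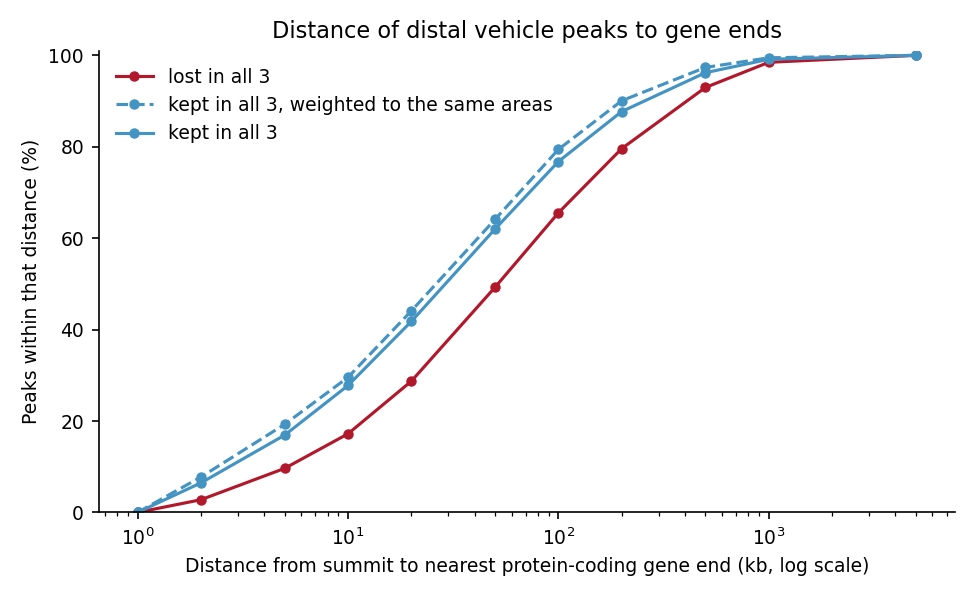
Cumulative percent of peaks (vertical axis) within a given distance of a protein-coding gene end (horizontal axis, kb, log scale) for lost peaks, kept peaks weighted to the same areas, and kept peaks. The lost curve lies to the right of both kept curves, with medians of 51.6, 26.6 and 29.4 kb in that order.

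Inside a protein-coding gene lay 4995 lost peaks, 47.2% (46.3 to 48.2%), against 50.6% (49.9 to 51.3%) of kept peaks and 53.8% at matched area, and the lost share was the smaller in 5 of 7 bands. Within 1 kb of an annotated start of any gene, coding or not, lay 1.89% (1.65 to 2.17%) of lost peaks against 11.9% (11.5 to 12.4%) of kept peaks and 6.71% at matched area. Of peaks lost in 1 or 2 lists, 47.6% lay inside a protein-coding gene, close to the lost peaks. Within 1 kb of an annotated start of any gene lay 3.09% of them, above the interval of the lost peaks and below both kept shares. A vehicle peak with an overlap in all 3 treated lists, at a gene end or distal, stood within 10 kb of 24.4% (23.6 to 25.3%) of lost peaks and of 36.4% (35.8 to 37.1%) of kept peaks, and of 46.1% at matched area. Of peaks lost in 1 or 2 lists 28.8% had one. Another lost peak stood within 10 kb of 11.3% (10.7 to 11.9%) of lost and of 10.8% (10.4 to 11.3%) of kept peaks, with intervals that overlapped, but of 8.74% of kept peaks at matched area, which is below the interval of the lost peaks. Peaks of a treated list that overlapped no vehicle peak numbered 2867 in the EZH2i, 5067 in the CBPi and 8100 in the FSK list. An EZH2i one stood within 10 kb of 1.75% of lost peaks and 5.07% of kept peaks. For CBPi the shares were 3.96% and 8.51%, and for FSK 6.96% and 10.5%. At matched area the kept shares were 14.2%, 16.3% and 17.1% for the EZH2i, CBPi and FSK lists. The rule chose the lost peaks by these same treated lists, so nothing is read from these shares.

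The share of distal peaks that was lost was lowest on chromosomes 19, 22 and 17. It was 9.05% (7.31 to 11.2%) on chromosome 19, where the areas alone gave 18.8%, 9.76% (7.44 to 12.7%) on chromosome 22, where they gave 22.7%, and 15.1% (13.2 to 17.2%) on chromosome 17, where they gave 23.8%. The highest shares were 26.5% (24.9 to 28.1%) on chromosome 4, against 22.5% from area, and 26.3% (23.6 to 29.3%) on chromosome X, against 25.1%. The share from area also lay above the interval on chromosomes 15, 7 and 20, and below it on chromosomes 2, 3, 4, 5 and 6. On chromosome 16 it lay within the interval. In 1 Mb windows with 20 or more protein-coding genes 11.0% (10.1 to 11.9%) of distal peaks were lost, with 19.6% from area, and in windows with 0 genes 26.9% (25.5 to 28.4%), with 24.0% from area. The copy number of the chromosomes was not used here.

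**Figure D4:**
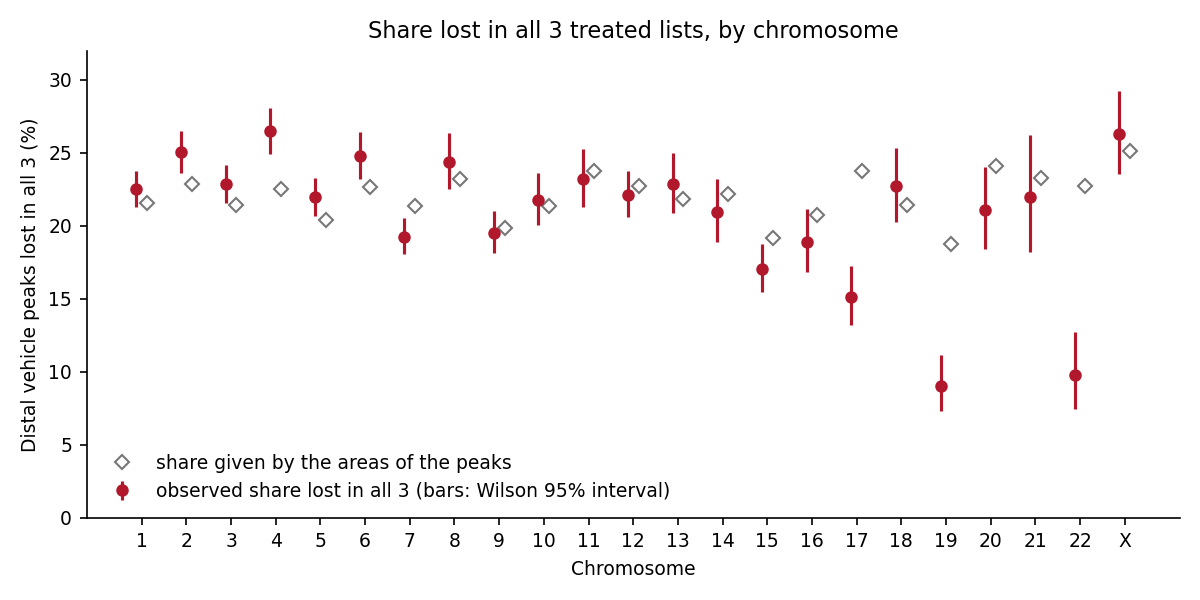
Percent of distal vehicle peaks lost in all 3 treated lists (vertical axis) by chromosome (horizontal axis), with Wilson 95% intervals, and as open diamonds the percent that the area bands of the same peaks give. Chromosomes 19, 22 and 17 lie furthest under their diamonds, and the intervals of 15, 7 and 20 also end below theirs.

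Lost peaks lay in most parts of the genome that held distal peaks. Of 2860 windows of 1 Mb with a distal peak, 2606 held a lost peak, the median was 3, and 107 windows held 10 or more. The fullest was chromosome 12 at 19 to 20 Mb, around AEBP2, a Polycomb complex 2 subunit, and PLEKHA5, with 23 lost of 60 distal peaks, where area gave 15.5. Chromosome 3 at 160 to 161 Mb had 17 of 39, chromosome 7 at 108 to 109 Mb, with the neural adhesion gene NRCAM, 16 of 33, and chromosome 12 at 21 to 22 Mb, with the potassium channel regulator gene ABCC9, 16 of 44. Chromosome 4 at 139 to 140 Mb and chromosome 7 at 43 to 44 Mb also had 16 each, of 54 and of 84. Area gave 11.9 for the window on chromosome 3, 8.53 for 108 to 109 Mb on chromosome 7, 11.7 for 21 to 22 Mb on chromosome 12 and 10.04 for the one on chromosome 4. At 43 to 44 Mb on chromosome 7 it gave 15.95, so that count was what area alone gives, and at 47 to 48 Mb there 15 of 124 were lost where area gave 24.5. In 19 places 5 or more lost peaks followed each other with no other vehicle peak between them. How many such runs area alone would give was not computed, so nothing is read from this count. The longest run was 10 lost peaks over 664.3 kb at chr2:163878781-164543039 near GRB14, an adaptor of the insulin receptor, with areas between 200.2 and 801.9. The next was 7 over 1111.6 kb on chromosome X around STS, steroid sulfatase, and NLGN4X, and 6 over 151.5 kb near RHOBTB1.

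By nearest gene end within 100 kb, 6930 lost peaks were assigned to 4629 genes of 11516 that had any distal vehicle peak, and 3643 were assigned to none. Of these genes 3114 had 1 lost peak, 517 had 3 or more and 71 had 5 or more. Over assigned distal peaks 20.1% were lost. PDE3A, a phosphodiesterase that breaks down cAMP, had 7 lost of 17 distal peaks, against 4.95 from area. It lies on chromosome 12 between the windows at 19 to 20 and 21 to 22 Mb, named above among the fullest. PDZRN4 had 7 of 19 against 5.15, PKD1L1 7 of 40 against 9.23, and GRB10, an adaptor that binds insulin receptors, 7 of 57 against 15.3, so the last 2 had many peaks rather than a high share. With 6 lost each were AFG1L (of 9), UBE2E1, a ubiquitin-conjugating enzyme gene (of 11), ABCC9 and the forkhead gene FOXN3 (of 13 each), the muscarinic receptor gene CHRM3 and the taurine transporter gene SLC6A6 (of 14 each), GALNT13 and TBC1D4 (of 15 each). Among genes with 8 or more distal peaks, the largest shares were 66.7% in AFG1L and 5 of 8, or 62.5%, in each of SVEP1, CCDC102B, NAALADL2, PTPRZ1 and the LIM homeobox gene LHX4.

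At PDE3A the lost peaks had areas between 235.7 and 409.4, and 6 of the 7 lay inside the gene. Neighbouring lost peaks lay 13.0, 13.8 and 15.3 kb from the gene's annotated lower end, with areas of 235.7, 409.4 and 278.1. The nearest peaks to the middle one, chr12:20382024-20382683, lay 4732 bp away in the EZH2i list, 11652 bp in the CBPi list and 4737 bp in the FSK list. The 4 kept peaks assigned to the gene, 1 of them outside it, had areas of 819.7, 887.2, 208.9 and 704.5, so 1 of these was smaller than every lost one. Further inside the gene, over 100 kb from its ends and so assigned to none, lay 2 more kept peaks, of areas 388.3 and 457.1.

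**Figure D5:**
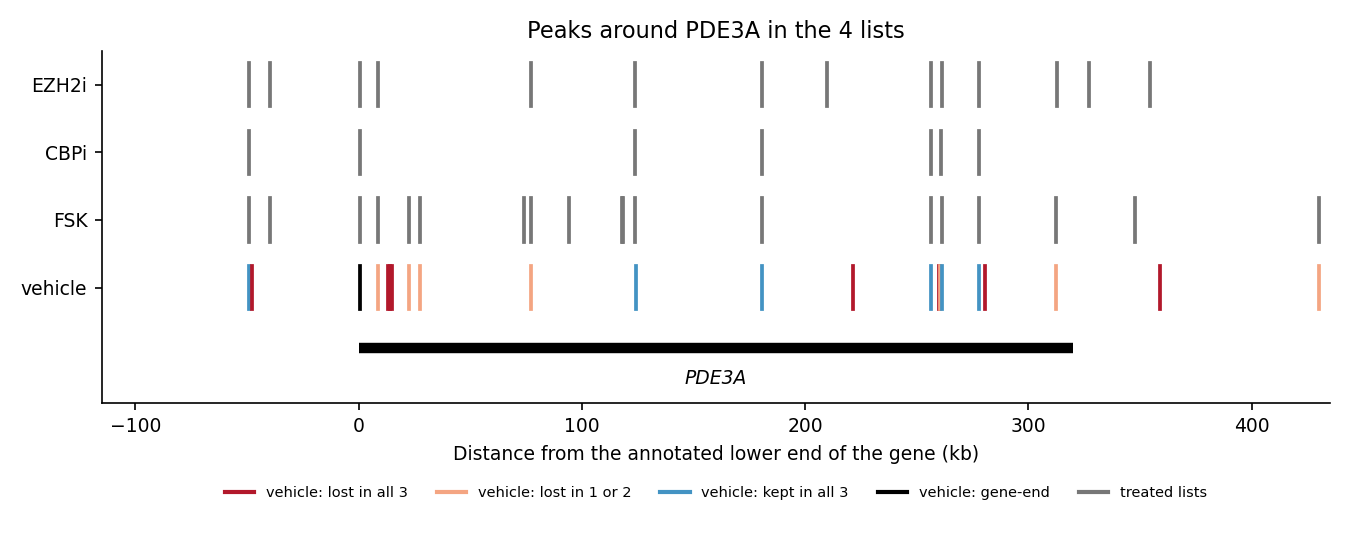
Peaks around PDE3A (horizontal axis, kb from the gene's annotated lower end) in the EZH2i, CBPi, FSK and vehicle lists from top to bottom, with vehicle peaks coloured by whether they were lost in all 3, lost in 1 or 2, kept in all 3, or at a gene end. The bar is the gene, 320 kb long, and 8 of the vehicle peaks drawn are lost in all 3, of which 7 are assigned to PDE3A.

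Genes of steroid synthesis and of the adrenocortical lineage had 15 lost of 107 distal peaks, 14.0% (8.68 to 21.9%), where area gave 16.0% and all assigned distal peaks 20.1%. HSD3B1, a 3β-hydroxysteroid dehydrogenase, had 3 lost of 6 distal peaks, with areas of 234.1, 257.0 and 203.5. The neighbouring HSD3B2, the main adrenal form of that enzyme, had 1 of 2, with an area of 316.3. SCARB1, the receptor that takes up cholesterol from HDL, had 3 of 22, and the peak at chr12:124732697-124733291 was the largest of the list, at 733.4. PDE8A, a cAMP phosphodiesterase of steroid-making cells, had 1 of 5, with an area of 653.6. STAR, which carries cholesterol into mitochondria, had 1 of 5, of area 211.0, and FDXR and FDX1, which pass electrons to the mitochondrial P450 enzymes, 1 of 4 each, of areas 424.6 and 208.1. DLK1 had 2 of 10, with areas of 300.2 and 323.5.

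In the cAMP, PKA and CREB list 29 of 211 distal peaks were lost, 13.7% (9.74 to 19.04%), where area gave 21.8%. Besides PDE3A, the phosphodiesterase genes PDE4D (3 of 10), PDE10A (2 of 6), PDE7B (1 of 5) and PDE4B (1 of 8) had lost peaks. Among adenylyl cyclases, ADCY2 had 4 of 14, ADCY9 2 of 3, ADCY5 1 of 6 and ADCY1 1 of 36. CREM, a CREB family gene, had 2 of 5, at areas of 238.6 and 244.6, and the nearest treated peak to each was under 1 kb away. PRKACB, a catalytic subunit of PKA, had 1 of 3, and CRTC3, a CREB coactivator, 1 of 7. The nuclear receptor gene NR4A2 had 1 of 3, of area 384.4, and JUN and SGK1 1 of 6 each.

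In the Wnt list 19 of 130 distal peaks were lost, 14.6% (9.56 to 21.7%), where area gave 21.0%. The inhibitors had SFRP1 with 2 of 2 and WIF1 with 1 of 2, and DKK3 and APCDD1 with 1 of 4 each. The feedback genes AXIN2, ZNRF3 and NKD1 had 1 of 6, 2 of 13 and 2 of 11 in that order. Of the nuclear factors, LEF1 had 2 of 3, with areas of 435.6 and 288.1, and TCF7L1 2 of 4. The receptor LGR5 had 2 of 9 and its ligand RSPO3 1 of 5. CCND1, cyclin D1, had 1 of 3, at chr11:69644263-69644809 with an area of 507.4, and MYC 1 of 11.

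In the list of Polycomb and coactivator genes 15 of 71 distal peaks were lost, 21.1% (13.2 to 31.97%), where area gave 19.2%. EZH2 itself had 2 of 4, at areas of 253.7 and 276.6, both inside the gene and over 20 kb from any treated peak. CREBBP, which encodes CBP, had 1 of 2, of area 258.7. Of the Polycomb subunits AEBP2 had 4 of 18, CBX7 1 of 2, PHF19 and RBBP7 1 of 4 each and JARID2 1 of 12, and the nuclear receptor coactivators NCOA1 and NCOA2 had 2 of 3 and 2 of 6. Transcription factors of development had 23 of 194, 11.9% (8.03 to 17.2%), where area gave 21.1%, with MEIS2 at 4 of 18, POU3F2 at 3 of 5, NEUROD1 at 2 of 5 and TFAP2A at 2 of 8. In the steroidogenic list the share from area lay within the interval of the observed share. In the cAMP list and the developmental list the share from area lay above the interval, and in the Wnt and Polycomb lists within it. The cAMP reading turned on chromosome 7, where ADCY1 lies: without that chromosome, a check chosen after seeing the data, 28 of 167 were lost, 16.8% (11.9 to 23.2%), and the 19.95% from area lay within the interval. The developmental list had 20 of 179 without it, 11.2% (7.35 to 16.6%), with 20.5% from area still above. The lists were written with earlier results of these data known, the peaks of 1 gene are neighbours, and assignment by nearest end does not show which gene a site acts on.

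Of 13 adrenocortical markers, 9 had a vehicle peak at an annotated end (within 1 kb), among them NR5A1, STAR, CYP11A1 and CYP17A1, and CYP11B1, CYP21A2, HSD3B2 and MRAP had none. It had such a peak at 0 of 5 fibroblast, 1 of 4 endothelial (KDR), 0 of 4 immune and 2 of 4 chromaffin markers (DBH and CHGA), and the part of other cells in the lost peaks was not tested.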

How the data were processed

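ATAC-seq libraries of NCI-H295R cells were used as 4 deposited peak lists, 1 per group of 2 libraries. Per the submitters' processing notes, the build was hg38 and Bowtie2, Genrich and deepTools 2.0 were used. Not given in the sources used here are how libraries were combined, the read filters, any Tn5 shift of read ends and the threshold for a peak. The lists deposited by the authors give a score up to 1000, a signal that is the area of the peak, a −log10 p-value at the summit and the summit's offset. In every list the score equalled 1000 times area over width, with a ceiling of 1000, to within 1 in 100% of peaks. Replicates share 1 list, so no count, depth or replicate error was used.

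Overlaps, distances and shares were computed with Python 3.11.15, pandas 2.3.3 and numpy 2.4.6, tested on simulated peaks, and the numbers lost in each list equalled those of bedtools 2.31.1. Genes were 19974 protein-coding genes of RefSeq GRCh38.p14; 424 of 425 list genes matched by symbol. Peaks were assigned to the nearest gene end within 100 kb. A number or share from area gives each distal peak the lost share of its area decile among vehicle peaks. The members, the 15 gene lists and the tests were chosen with earlier results of these data known, and the promoter windows, the motifs plotted, the runs of consecutive peaks and the printed sequences after values were seen. No genome was used here, so the motif search around summits was not run. In promoters, 24 motifs were sought: AGATAA, the motif of the GATA factors, NR5A1 (CAAGGTCA), AP-1 (TGANTCA), CRE (TGACGTCA), CRE variant (TGACGCAA), TCF/LEF (CTTTGAT), CTCF core (AGGGGGC), NFY (CCAAT), SP/KLF (GGGCGG), ETS (CCGGAA), TEAD (GGAATG), forkhead (TGTTTAC), E-box (CAGCTG), E-box (CACGTG), HOX/PBX (TGATTNAT), homeobox (TAATTA), POU octamer (ATGCAAAT), SOX (ACAAAG), MEF2 (TATTTNTA), C/EBP (TTGCGCAA), RUNX (TGTGGT), NFI (TTGGCA), glucocorticoid (AGAACA) and NRF1 (GCGCATGCG), each counted by itself where they overlap.

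Named peaks were the 10 of largest area, the 4 widest, the 4 of highest summit, the 4 nearest a treated peak and the 4 least covered in 1 list; only some are printed, and a few named peaks and genes are not reported here. Named genes were the 12 with most lost peaks, the 6 with the largest share among genes with 8 or more distal peaks, all lost peaks of 4 lists and up to 4 genes of the other lists. Results were recomputed with 7 other settings and 1 added later. No sequence of chromosome 8 is printed.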

Additional observations from a re-analysis of the deposited data

How the results depend on the processing

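The number of lost peaks, their share of distal peaks and their positions were recomputed with 7 other settings and without chromosome 7, a setting chosen after seeing the data; no value changed sign. The number was 10573 and the share 21.8%. Only the area limits moved the number past 1.5 times: among vehicle peaks of at least the median area 330 were lost (1.66%), and with every list shortened to its 41086 largest peaks 2937 were lost (9.88%), of which 1801 are among the 10573. The share was 24.1% when at least 50% of the vehicle peak had to be covered, 20.7% with treated peaks widened by 500 bp, 21.0% with a treated summit within 1000 bp, 22.8% with summits over 5 kb from gene ends and 22.6% with summits over 1 kb from the ends of every annotated gene. The share inside genes differed between lost and kept peaks by -3.38 points, by -1.79 points with summits over 5 kb away and by -4.58 with every annotated gene. The share over 100 kb from gene ends was 11.2 points higher for lost peaks, 17.1 points among peaks of at least the median area and 12.6 with lists of equal length. The cause of these moves was not tested. Leaving out a replicate was not possible because the libraries of a group share 1 list. No paired analysis was possible because each group has 1 list and the labels give no replicate numbers. The motif search around summits with 2 window sizes was not run, since no genome was used here. Chromosome 19 had the lowest lost share under these 7 settings except 2: chromosome 22 was lowest among peaks of at least the median area (0%) and with summits over 5 kb away (11.4%). Depth is unknown, so a lost peak cannot be told apart from a peak that lacked reads in the treated lists.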

Other observations

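Several other gene groups had lost peaks. The very long neuronal adhesion and synaptic genes had 56 lost of 228 distal peaks, 24.6% (19.4 to 30.5%), against 22.6% from area, and 32 of the 43 genes with a distal peak had 1 or more. DLG2, a synaptic scaffold gene, had 3 of 4, NRXN3, a neurexin, 3 of 5, NTM 3 of 7 and CNTNAP2 3 of 11. The list of AP-1, TEAD and YAP genes had 11 of 43, 25.6% (14.9 to 40.2%), against 22.9% from area, with TEAD1 and YAP1 at 2 of 4 each, LATS2 at 2 of 6 and WWTR1 at 2 of 8. Cholesterol supply genes had 13 of 65, 20% (12.1 to 31.3%), against 19.8% from area, with STARD4 at 3 of 8 and ABCA1, which exports cholesterol, at 3 of 10, and 1 of 1 at NPC1 and at NPC2. In these lists the share from area lay within the interval.

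Cell cycle and E2F genes had 4 of 50, 8% (3.16 to 18.8%), against 19.1% from area, above the interval, at CDK1, MCM3, RRM2 and E2F7. p53 and stress genes had 3 of 36, 8.33% (2.88 to 21.8%), against 6.86%, at TP53INP1, GADD45A and ZMAT3. Housekeeping genes had 4 of 42, 9.52% (3.77 to 22.1%), against 19.3%, among them 1 each at VCP, GPI and GUSB. The marker lists of other cell types had 5 of 32 for fibroblasts, 15.6% (6.86 to 31.8%), 8 of 34 for endothelium, 23.5% (12.4 to 40%), 7 of 55 for immune cells, 12.7% (6.30 to 24.02%), and 2 of 29 for chromaffin cells, 6.90% (1.91 to 21.96%). Shares from area were 24.0% for fibroblasts, 27.3% for endothelium, 25.3% for immune cells and 24.7% for chromaffin cells, which is within the interval for fibroblasts and endothelium and above it for immune and chromaffin cells. Without chromosome 7, a check chosen after seeing the data, immune genes had 5 of 20, 25% (11.2 to 46.9%), with 28.3% from area, and chromaffin genes 2 of 10, 20% (5.67 to 50.98%), with 27.6% from area, both within the interval. The same held for the cell cycle list, with 4 of 43, 9.30% (3.68 to 21.6%), and 20.2% from area. The 10573 lost peaks overlapped 1 miRNA hairpin, MIR3153, with a peak at chr9:89312268-89312749 of area 272.9. The 20978 kept peaks, which were wider, overlapped 58 hairpins. Width and area were not matched, so nothing is read from these counts.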
